A study of Mus musculus with 7 samples.

Results

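Genes that respond to glucocorticoids, together with the receptors that read these hormones, were followed in the forebrain of *Lhx6* mutant mice. The set comprised 10 genes chosen by symbol, *Nr3c1*, *Nr3c2*, *Fkbp5*, *Sgk1*, *Tsc22d3*, *Zbtb16*, *Hif3a*, *Pdk4*, *Plin4* and *Cdkn1a*, out of 47729 genes in the count table, and all 10 passed the filter of at least 10 counts in at least 3 libraries. Total RNA came from freshly dissected forebrains of mice at postnatal day 15 on an F1(C57BL/6 X 129Sv) background. The control group held 4 pools of *Lhx6*+/- mice and the mutant group held 3 pools of *Lhx6*-/- mice, with 2 animals in each pool. Both groups carried the null allele *Lhx6*tm2Vpa, on 1 chromosome in controls and on both in mutants, so that the controls were not wild type and the loss in mutants was not limited to 1 cell type. Of the control pools, 2 were of males and 2 of females, whereas the mutant pools were 2 of mixed sex and 1 of females; the labels do not tie a pool to a library, and no sex could be entered for a library. No hormone level was analysed here, and neither group received a treatment according to the labels.

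Glucocorticoids are steroid hormones of the adrenal cortex that enter cells and bind the glucocorticoid receptor (encoded by *Nr3c1*) or the mineralocorticoid receptor (*Nr3c2*), which binds corticosterone more tightly and is abundant in hippocampal neurons. The hormone-bound receptor leaves its chaperone complex, moves to the nucleus and binds DNA at palindromic glucocorticoid response elements. *Fkbp5*, *Sgk1*, *Tsc22d3* and *Zbtb16* are among its best known targets in brain, while several of the others also answer to further signals, *Cdkn1a* to p53 and *Pdk4* and *Plin4* to fatty acid-sensing receptors.

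Response elements are written in the DNA next to these genes, and the promoter windows of the members, 250 bases before to 50 after each annotated start (RefSeq, GRCm38.p6), were searched for them. Stretches are shown here for the element with both arms, for the single arm of *Tsc22d3*, and for both genes called different between genotypes. The search used both strands, with the letters GNACANNNTGTNC for an element with both arms and TGTTCT for a single arm. A single arm inside an element with both arms was counted as well. Windows were found for 8 of the 10 members, 16 windows in all. The element with both arms occurred in 1 member window, at *Sgk1*, and in 0.475% of all 32851 windows of the same length. Single arms occurred in 4 member windows, 3 at *Sgk1* and 1 at *Tsc22d3*, against 19.0% of all windows. In the first sequence the capitals mark the element with both arms, upstream of an *Sgk1* start on the plus strand, and in the second they mark the single arm upstream of a *Tsc22d3* start on the minus strand.
Sgk1, chr10:21993678-21993738, plus strand: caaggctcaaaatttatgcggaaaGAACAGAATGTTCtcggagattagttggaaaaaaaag
Tsc22d3, chrX:140600684-140600725, minus strand: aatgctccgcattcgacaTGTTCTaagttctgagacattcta

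The windows of both members that were called different between genotypes, *Fkbp5* and *Cdkn1a*, held neither of these motifs. The 100 bases before the annotated *Fkbp5* start and before the upstream *Cdkn1a* start follow. Capitals in the *Cdkn1a* sequence mark the cores of both arms of a p53-type element, CATGNNNNNNCATG, a motif that was searched for only after the windows had been read. It was found in 1 of the 16 member windows and in 0.712% of all windows. A match in letters is not a bound site, and its absence from a short window says nothing of elements farther away.
Fkbp5, chr17:28486150-28486249, minus strand: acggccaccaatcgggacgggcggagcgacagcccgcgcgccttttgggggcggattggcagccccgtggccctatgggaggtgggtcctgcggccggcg
Cdkn1a, chr17:29090879-29090978, plus strand: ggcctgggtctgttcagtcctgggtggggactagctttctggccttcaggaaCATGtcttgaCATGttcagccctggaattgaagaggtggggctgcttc

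Libraries held between 32556304 and 38069151 expected counts, so that 3 counts, the most that a count of 0 allows, equal 0.0788 to 0.0921 CPM (a count scaled to a common library total). Columns are named by genotype and library number, 2, 3, 10 and 11 for controls and 5, 12 and 13 for mutants. The first principal component, with 39.6% of the variance, set libraries 2, 3 and 5 apart from libraries 10 to 13, and the second, with 23.4%, separated the genotypes. What the run of library numbers stands for is not given in the sources used here; both runs hold both genotypes, and values within each run are given below. The targeted gene *Lhx6* had normalized counts (counts scaled to a common library size) of 476 to 615 in controls and 70.1 to 76.6 in mutants, a log2 fold change of -2.88 (SE 0.135, edgeR's quasi-likelihood test, adjusted p = 5.99e-05). Each pool counted as 1 sample, so p-values measure the spread between pools. Forebrain identity was checked with 4 forebrain markers, which summed to 203 to 224 CPM in controls and 204 to 242 CPM in mutants, although 1 of them, *Lhx2*, was lower in mutants (log2 fold change -0.33, edgeR adjusted p = 0.0368), and with 6 cerebellum and hindbrain markers, which summed to 1.08 to 2.09 and 0.988 to 1.48 CPM, with *Hoxa5* at 0 in every library.

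Among the 10 genes, *Cdkn1a* and *Fkbp5* were higher in mutant forebrains at an adjusted p of 0.05 or less, *Cdkn1a* by 2.37-fold and *Fkbp5* by 1.32-fold, and none was lower. That is 2 of 10, where 4.85% of all 19684 tested genes were called, 2.97% as higher and 1.87% as lower. The 10 genes, and all lists below, were chosen with earlier results of these data known. Their shares are therefore descriptive, and an excess over all tested genes cannot test the hormone response. Every mutant library lay above every control library for 4 of the 10 (*Cdkn1a*, *Fkbp5*, *Sgk1* and *Zbtb16*), against 10.7% of all tested genes, and no member had all mutants below all controls, against 9.00%. An unadjusted p of 0.05 or less was found for 5 of 10, all of them higher, and for 18.2% of all genes. More members passed under 3 of the alternatives: 4 with DESeq2 (8.80% of all genes), 4 with the run of libraries as a covariate (11.2%), and 3 in libraries 10 to 13 alone (10.3%). On simulated data DESeq2 made 51 false calls, against 9 for edgeR. Log2 fold changes were positive for 7 members and negative for 3, with a median of 0.38 beside -0.01 over all tested genes. The counts behind these values are shown by library in the panels that follow.

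**Figure D1:**
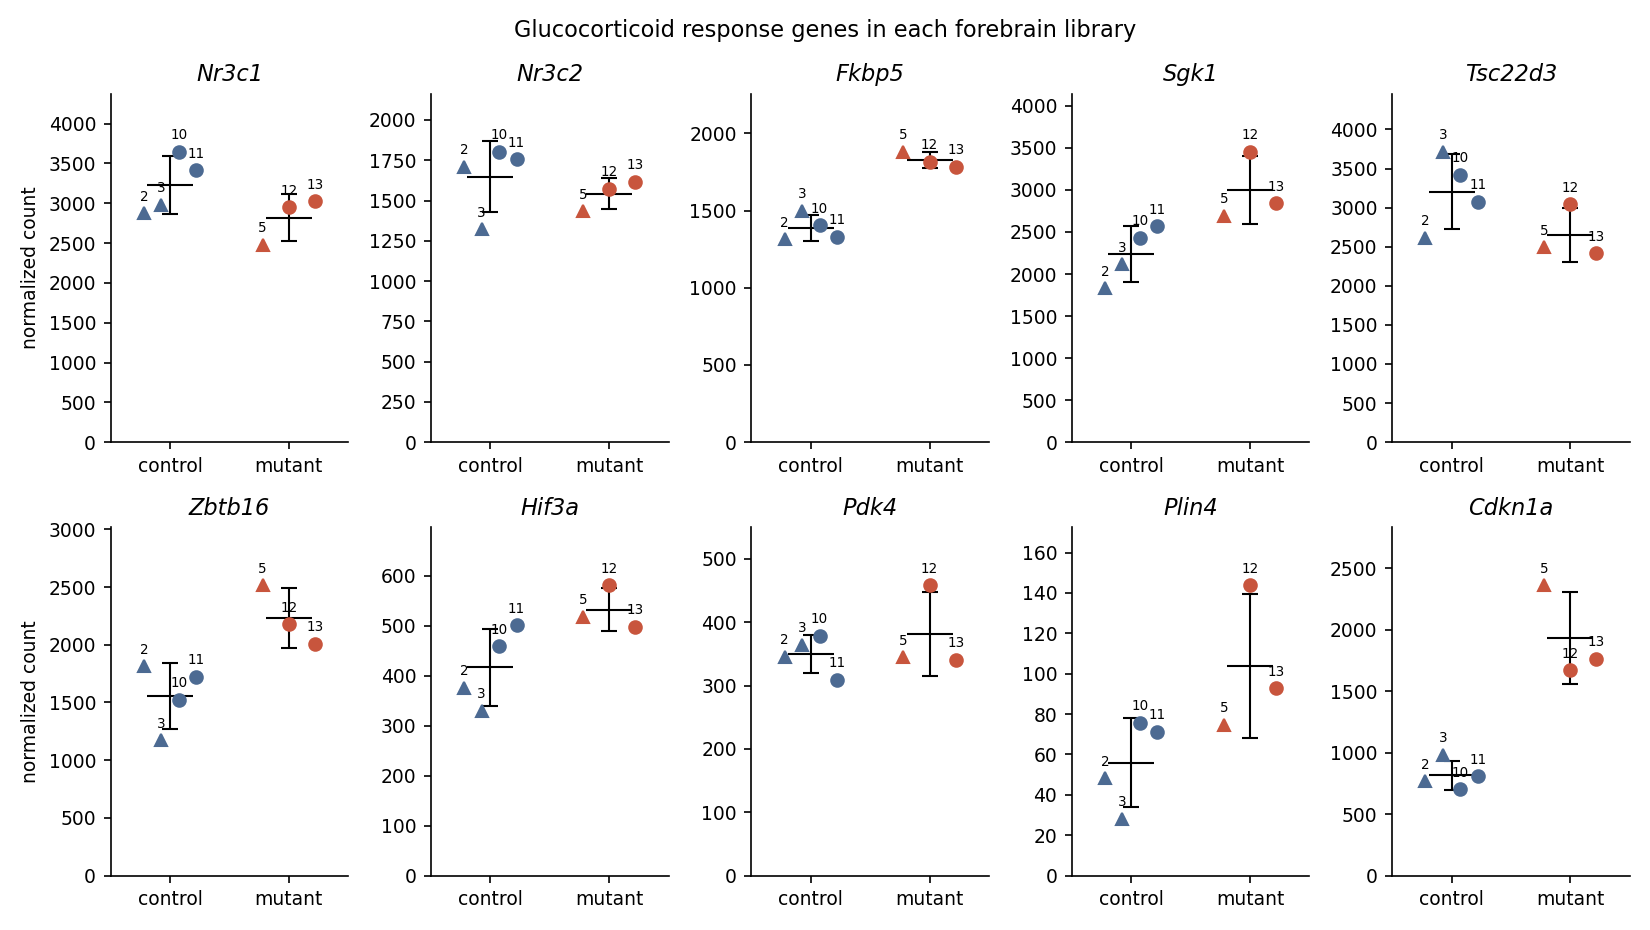
Normalized counts of the 10 genes in each library, with the genotype on the x axis and the count on the y axis from 0. Each point is a pool of 2 animals labelled with its library number (triangles, libraries 2, 3 and 5; circles, libraries 10 to 13), and horizontal lines with bars give mean ± SD. Mutant libraries lie above all controls for *Fkbp5*, *Sgk1*, *Zbtb16* and *Cdkn1a*, whereas the points of the other 6 genes overlap.

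The receptor genes came first in this comparison, since the response depends on them. *Nr3c1*, the glucocorticoid receptor (chromosome 18, 39410545 to 39491301, minus strand, GRCm38), counted 2874 in control library 2, 2978 in library 3, 3648 in library 10 and 3412 in library 11, after normalization, while mutant library 5 had 2481, library 12 had 2952 and library 13 had 3026. The same order of libraries is kept for every gene that follows. The groups overlapped, the lowest mutant lying below all controls and the others between the controls. The mean was 3228 ± 364 (SD, n = 4) in controls and 2819.7 ± 296 (SD, n = 3) in mutants, a log2 fold change of -0.20 (SE 0.112, edgeR adjusted p = 0.420). Within both runs of library numbers the difference was -0.24, and it passed the threshold when the run was a covariate (edgeR adjusted p = 0.0308). *Nr3c2*, the mineralocorticoid receptor (chromosome 8, 76899442 to 77245012, plus strand), counted 1709, 1323, 1804 and 1757 in controls and 1433, 1574 and 1617 in mutants. All 3 mutants fell inside the control range, and the log2 fold change was -0.10 (SE 0.115, edgeR adjusted p = 0.747). Of the *Nr3c2* exon bases, 3.82% overlap a gene on the opposite strand, whose reads cannot be told apart here because strandedness of the counting was not given.

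*Fkbp5* encodes a co-chaperone of the receptor complex that lowers the receptor's affinity for hormone and is itself induced by it (chromosome 17, 28399095 to 28517524, minus strand). Controls had 1314, 1497, 1405 and 1331 normalized counts, against 1881, 1816 and 1782 in mutants. The groups were separated by a gap larger than the range within either of them. The means of 1387 ± 83.5 (SD, n = 4) and 1827 ± 50.5 (SD, n = 3) correspond to a log2 fold change of 0.40 (SE 0.0740, edgeR adjusted p = 0.0197). Both runs gave a similar difference, 0.42 in libraries 2, 3 and 5 and 0.40 in libraries 10 to 13. Its call was not stable to the loss of a library: with 1 library left out, the log2 fold change stayed between 0.37 and 0.44, but the edgeR adjusted p ran from 0.0100 to 0.0912 and passed the threshold only without control library 3.

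*Sgk1*, a kinase that regulates ion channels and transporters (chromosome 10, 21882184 to 21999903, plus strand), was the gene with the response element printed above. Controls had 1833, 2114, 2432 and 2568 normalized counts and mutants 2693, 3456 and 2844. All mutants exceeded all controls, although control library 11 and mutant library 5 were close. From a mean of 2237 ± 329.9 (SD, n = 4) in controls to 2998 ± 404 (SD, n = 3) in mutants, the log2 fold change was 0.42 (SE 0.134), which did not pass the threshold (edgeR adjusted p = 0.129). It passed with DESeq2 (adjusted p = 0.0498) and when edgeR took the run as a covariate (adjusted p = 0.0268). Within the runs, the difference was 0.45 in libraries 2, 3 and 5 and 0.33 in libraries 10 to 13.

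*Tsc22d3*, which encodes the leucine zipper protein GILZ, a mediator of anti-inflammatory glucocorticoid action (chromosome X, 140539528 to 140600659, minus strand), had a lower mean in mutants. Its normalized counts were 2615, 3717, 3420.4 and 3072 in controls and 2491, 3042 and 2417 in mutants. Mutant library 12 lay among the controls and the other two lay below them. The log2 fold change of -0.28 (SE 0.134) did not pass the threshold (edgeR adjusted p = 0.333) in this comparison or in any of the 16 alternatives that could be run for an X-linked gene, and was -0.32 and -0.26 within the 2 runs. Compared within each library, the ratio of *Fkbp5* to *Tsc22d3* counts was 0.403 to 0.503 in controls and 0.597 to 0.755 in mutants, and that of *Sgk1* to *Tsc22d3* was 0.569 to 0.836 and 1.08 to 1.18. These pairs were picked after their values were seen, and the ratios are given without a test.

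The transcriptional regulators *Zbtb16* and *Hif3a* are both known to be induced by glucocorticoids. *Zbtb16*, the zinc finger repressor PLZF (chromosome 9, 48654311 to 48835945, minus strand), had 1814, 1171, 1523 and 1721 normalized counts in controls and 2516, 2178 and 2008 in mutants. Every mutant was above every control, and control library 3 was the lowest by a wide margin. With means of 1557 ± 285 (SD, n = 4) and 2234 ± 259 (SD, n = 3), the log2 fold change was 0.52 (SE 0.150, edgeR adjusted p = 0.0945), short of the threshold. It passed with DESeq2 (adjusted p = 0.0176) and in libraries 10 to 13 alone (edgeR adjusted p = 0.0231), while the runs gave 0.79 (libraries 2, 3 and 5) and 0.37 (libraries 10 to 13). *Hif3a*, a hypoxia-inducible factor subunit with isoforms that restrain the other factors (chromosome 7, 17031507 to 17062427, minus strand), had 376, 330.4, 459.6 and 501 counts in controls and 518, 582 and 498 in mutants. The groups met at control library 11 and mutant library 13, and the log2 fold change of 0.35 (SE 0.155) did not pass (edgeR adjusted p = 0.274).

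*Pdk4* and *Plin4* represent the metabolic side of the response. *Pdk4*, a kinase that shuts off pyruvate dehydrogenase and thereby spares glucose (chromosome 6, 5483351 to 5496309, minus strand), had 345, 365, 379 and 309 normalized counts in controls and 345, 459 and 341 in mutants. Mutants 5 and 13 were inside the control range and only library 12 was above it. The log2 fold change was 0.13 (SE 0.140, edgeR adjusted p = 0.726), and without mutant library 12 it was -0.026. *Plin4*, a lipid droplet coat protein (chromosome 17, 56100591 to 56109803, minus strand), was the least abundant member, with 48.3, 28.1, 75.8 and 71.1 counts in controls and 74.7, 144 and 92.8 in mutants. Mutant library 5 lay just below control library 10, and the other mutants were above all controls. The log2 fold change of 0.89 was the second largest of the set but had an SE of 0.356 and did not pass (edgeR adjusted p = 0.228).

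*Cdkn1a*, which encodes the cyclin-dependent kinase inhibitor p21 (chromosome 17, 29090979 to 29100722, plus strand), differed most. Controls had 767, 981, 703 and 806 normalized counts, and mutants 2361, 1667 and 1764. The lowest mutant was well above the highest control. The mean was 814 ± 119 (SD, n = 4) in controls and 1931 ± 376 (SD, n = 3) in mutants, a log2 fold change of 1.25 (SE 0.150, edgeR adjusted p = 0.00314). It passed the threshold in all 17 alternatives, with an edgeR adjusted p of 0.00335 to 0.0142 when 1 library was left out. Libraries 2, 3 and 5 gave a difference of 1.44, and libraries 10 to 13 one of 1.19. Of its 36-base words, 9.30% also occur in other genes, against at most 2.69% for the other members, so a small part of its count could have been shared with copies.

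**Figure D2:**
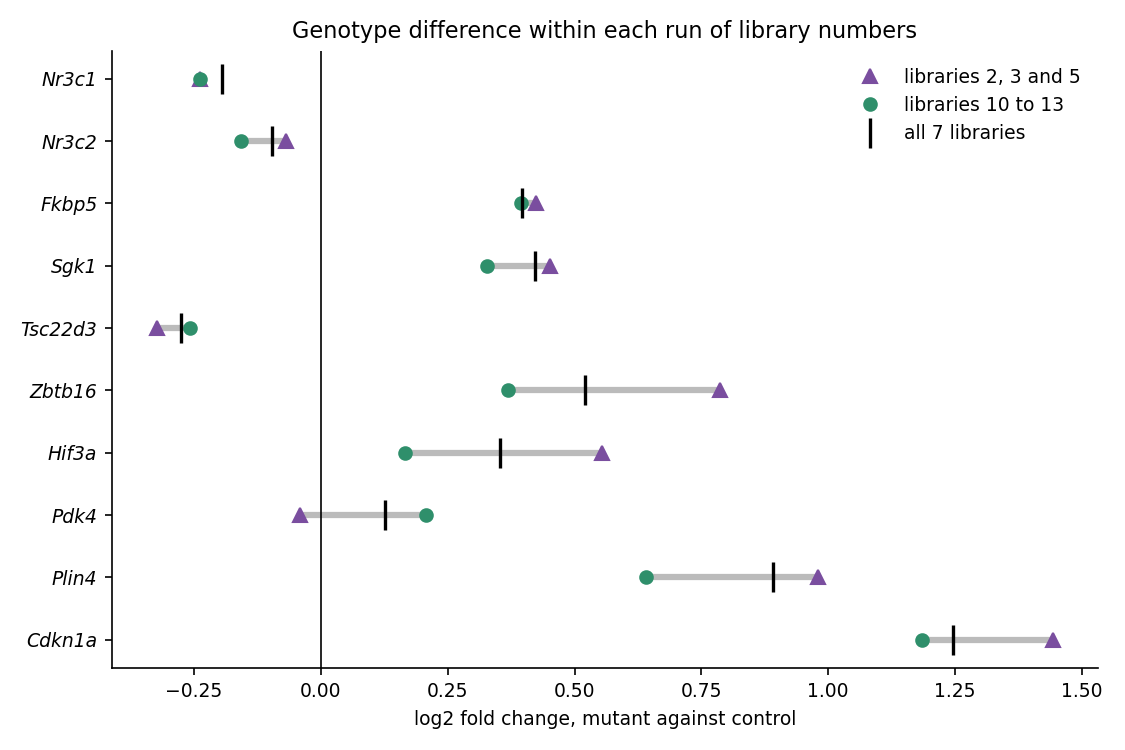
Log2 fold change of mutant against control (x axis) for each of the 10 genes within libraries 2, 3 and 5 (triangles), within libraries 10 to 13 (circles) and over all 7 libraries (vertical ticks). Signs are equal in both runs for every gene except *Pdk4*, which was -0.04 in the first run and 0.21 in the second.

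The size of the difference varied between the runs of library numbers while its sign mostly did not. The median over the members was 0.44 in libraries 2, 3 and 5, which hold a single mutant, against 0.27 in libraries 10 to 13. *Zbtb16* and *Hif3a* had the largest gaps between runs, *Hif3a* with 0.55 and 0.16, and *Fkbp5* and *Nr3c1* the smallest. Single libraries took part to unequal extents as well. Mutant library 12 was the highest mutant for 5 members (*Sgk1*, *Tsc22d3*, *Pdk4*, *Plin4* and *Hif3a*), whereas mutant library 5 was the highest for *Fkbp5*, *Zbtb16* and *Cdkn1a*. Among controls, library 3 was the lowest for *Nr3c2*, *Zbtb16*, *Plin4* and *Hif3a* and the highest for *Fkbp5*, *Tsc22d3* and *Cdkn1a*. The members therefore did not rank the libraries of a genotype in 1 order.

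Levels can be compared between genes only per length of exon, as CPM per kilobase. In controls *Tsc22d3* was the most abundant, at 20.7 ± 3.07 CPM per kilobase (SD, n = 4), and did not overlap with the next, *Sgk1* at 12.8 ± 1.89. *Sgk1*, *Nr3c1* (12.2 ± 1.38) and *Cdkn1a* (10.3 ± 1.5) overlapped in their ranges over libraries, as did each neighbouring pair from *Cdkn1a* through *Zbtb16* (8.57 ± 1.57) and *Nr3c2* (7.14 ± 0.956) to *Fkbp5* (6.12 ± 0.368). *Pdk4* (2.79 ± 0.242), *Hif3a* (1.74 ± 0.324) and *Plin4* (0.271 ± 0.107) followed, each below the range of the one before. In mutants *Cdkn1a* stood first, at 24.4 ± 4.74 CPM per kilobase (SD, n = 3), while *Sgk1* (17.2 ± 2.31) and *Tsc22d3* (17.1 ± 2.21) had nearly equal means. *Nr3c1* had more transcript per length than *Nr3c2* in every library, with a ratio of counts per kilobase of 1.72 ± 0.205 (SD, n = 4) in controls and 1.59 ± 0.0714 (SD, n = 3) in mutants.

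**Figure D3:**
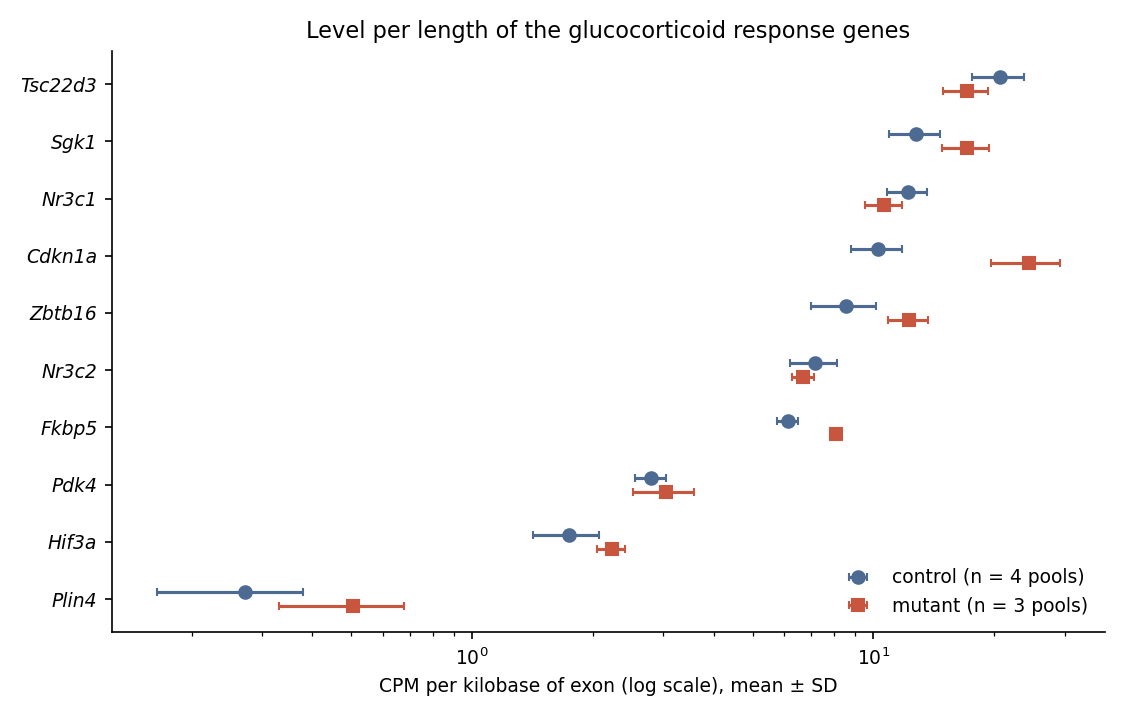
Level of the 10 genes in CPM per kilobase of exon (x axis, log scale), as mean ± SD over 4 control pools (circles) and 3 mutant pools (squares). *Cdkn1a* went from 10.3 in controls, below 3 other members, to 24.4 in mutants, above all others, and *Tsc22d3* from 20.7 to 17.1.

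Further genes commonly reported as raised by glucocorticoids were read from the same fit. Of 20 such genes, 1 rose and none fell, a share near the 4.85% of all tested genes called; 18 had a positive and 2 a negative log2 fold change, and the median was 0.24 beside -0.01 over all tested genes. The gene that rose was *Mfsd2a*, a lysophosphatidylcholine transporter of brain endothelium, with 2156, 2122, 2229.7 and 2147 normalized counts in controls and 3057, 2640.3 and 3045 in mutants, a log2 fold change of 0.43 (SE 0.0763, edgeR adjusted p = 0.0160). Its mutants were all above its controls, as were those of 5 others, which makes 6 of 20 against 10.7% of all tested genes. The *Mfsd2a* call was lost without mutant library 5 or 13, which left no gene of the list called. The largest log2 fold change belonged to *Mt2*, a metallothionein, at 0.85 (SE 0.213, edgeR adjusted p = 0.0593); of its 36-base words, 54.6% occur in other genes, so its count is less certain. The smallest was that of *Lcn2*, the secreted lipocalin 2, at -0.12 (SE 1.05, edgeR adjusted p = 0.973), where control library 3 alone had 208 normalized counts and the other controls at most 28.5.

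Members of the list differed widely among themselves. *Per1* (log2 fold change 0.07, edgeR adjusted p = 0.837), *Klf15* (0.07, adjusted p = 0.857) and *Ddit4* (0.02, adjusted p = 0.971) are well known targets that were singled out after their values were seen, and their counts overlapped between genotypes. *Dusp1*, a phosphatase that turns off MAP kinases, *Map3k6* and *Glul*, the glutamine synthetase of astrocytes (18.3% of its words shared with other genes), had mutants above all controls without passing in edgeR, at 0.64 (adjusted p = 0.0799), 0.76 (adjusted p = 0.0524) and 0.27 (adjusted p = 0.0730). These 3 and *Mt2* are named because DESeq2 called them along with *Mfsd2a*, which makes 5 of 20 where DESeq2 called 8.80% of 19677 genes.

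**Figure D4:**
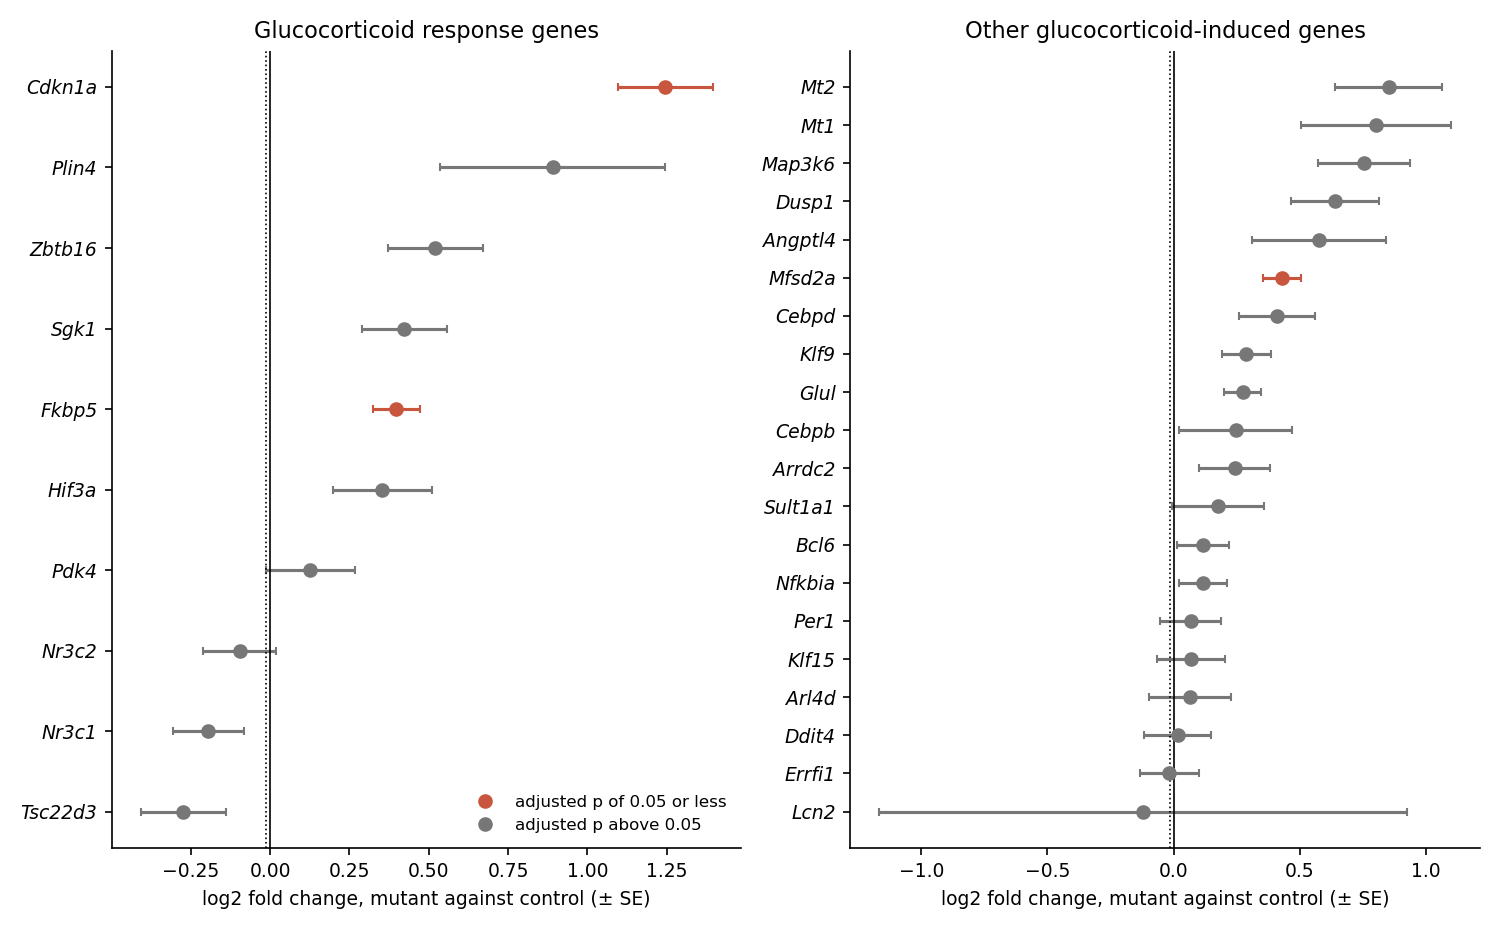
Log2 fold change of mutant against control (x axis) with its SE for the 10 genes (left) and for 20 other glucocorticoid-induced genes (right); filled red points passed an adjusted p of 0.05, grey points did not, and the dotted line is the median of all tested genes. *Cdkn1a* and *Fkbp5* passed on the left and *Mfsd2a* on the right, where 18 of 20 points are above 0.

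Supply of the hormone inside the brain depends on enzymes and pumps. *Hsd11b1*, the enzyme that regenerates active corticosterone from its inert form, rose from 714, 637, 701 and 631 normalized counts in controls to 929, 927 and 893 in mutants, a log2 fold change of 0.45 (SE 0.0864, edgeR adjusted p = 0.0225), with 0.46 and 0.45 within the runs. Of 6 genes in this group 4 were tested, 1 rose and all 4 had positive values, with a median of 0.41. Over all tested genes 4.85% were called. *Abcb1b*, 1 of the pair of genes for the efflux pump that limits entry of corticosteroids, had the largest value at 0.51 (edgeR adjusted p = 0.239), and *H6pd*, which supplies the cofactor of *Hsd11b1*, the smallest at 0.22 (edgeR adjusted p = 0.418). *Hsd11b2*, the enzyme that inactivates corticosterone, and *Serpina6*, the plasma carrier, did not pass the filter on counts, *Serpina6* at 0 in every library. DESeq2, which called 8.80% of all genes, called 2 of the group, *Hsd11b1* and *Abcb1a*, the other gene of the pump. The limma-voom fit called *Hsd11b1*.

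Chaperones that hold the receptors ready for hormone, and cofactors that act with them on DNA, were read next. Of 15 tested, none passed the adjusted threshold in edgeR without a covariate or in limma-voom, and the median was -0.11. In that edgeR fit 2 had an unadjusted p of 0.05 or less, where 18.2% of all tested genes did. The lowest value was that of *Nrip1*, a corepressor of nuclear receptors, at -0.29 (edgeR adjusted p = 0.0688). DESeq2, and edgeR with the run as a covariate, called 1 of the 15, *Nrip1*, as lower, and edgeR in libraries 10 to 13 alone called 2, *Nrip1* and *Ncoa3*.

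Close relatives of the members were read for comparison within gene families. Of 16 relatives, 1 rose and none fell, where 4.85% of all tested genes were called, and the median was 0.09. Their sum was nevertheless higher in every mutant, at 994 to 1032 CPM in controls and 1079 to 1148 CPM in mutants. Mutants were all above controls for 3 of the 16 and all below for 1. The 1 that rose was *Pdk1*, which acts on the same enzyme as *Pdk4*, from 1952 ± 106 (SD, n = 4) to 2577 ± 192 (SD, n = 3) normalized counts, a log2 fold change of 0.40 (SE 0.0805, edgeR adjusted p = 0.0277). *Plin1* had the largest value, 1.34, at 2.0 to 21.1 counts a library (edgeR adjusted p = 0.321), and *Plin5* the smallest, -0.49 (edgeR adjusted p = 0.548). *Epas1*, a relative of *Hif3a*, was at 0.40 (edgeR adjusted p = 0.0766), with all mutants above all controls. It was called higher beside *Pdk1* with DESeq2, with the run as a covariate, and in libraries 10 to 13 alone.

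Several members answer to other signals, and genes of those signals were read beside them. Of 12 p53 target genes other than *Cdkn1a*, 1 rose and none fell, where 4.85% of all tested genes were called, and the median was 0.14. *Sesn2*, a stress-induced regulator of mTORC1, rose from 470.0 ± 20.8 (SD, n = 4) to 771 ± 50.0 (SD, n = 3), a log2 fold change of 0.71 (SE 0.0930, edgeR adjusted p = 0.00469). *Ccng1*, another direct target, was at -0.43 (edgeR adjusted p = 0.206), and *Pmaip1* was at 0.68 (edgeR adjusted p = 0.157). With the run as a covariate, edgeR called 2 higher, *Sesn2* and *Pmaip1*, and 1 lower, *Ccng1*. In libraries 10 to 13 alone it called *Sesn2* higher and *Ccng1* lower. Of 12 genes of fatty acid oxidation and ketone production, which share regulators with *Pdk4* and *Plin4*, 8 had a positive and 4 a negative log2 fold change, with a median of 0.15, and none fell at the adjusted threshold. *Acadm*, a dehydrogenase of fatty acid oxidation, had the smallest value, -0.18 (edgeR adjusted p = 0.664). Of 12 hypoxia-induced genes, set beside *Hif3a*, none was called in edgeR without a covariate or in limma-voom, and 3 in DESeq2 and with the run as a covariate. In the first of these fits 3 had an unadjusted p of 0.05 or less, where 18.2% of all tested genes did. The median was -0.01, from *Egln3* at -0.50 (edgeR adjusted p = 0.0712) to *Car9* at 0.77 (edgeR adjusted p = 0.533).

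**Figure D5:**
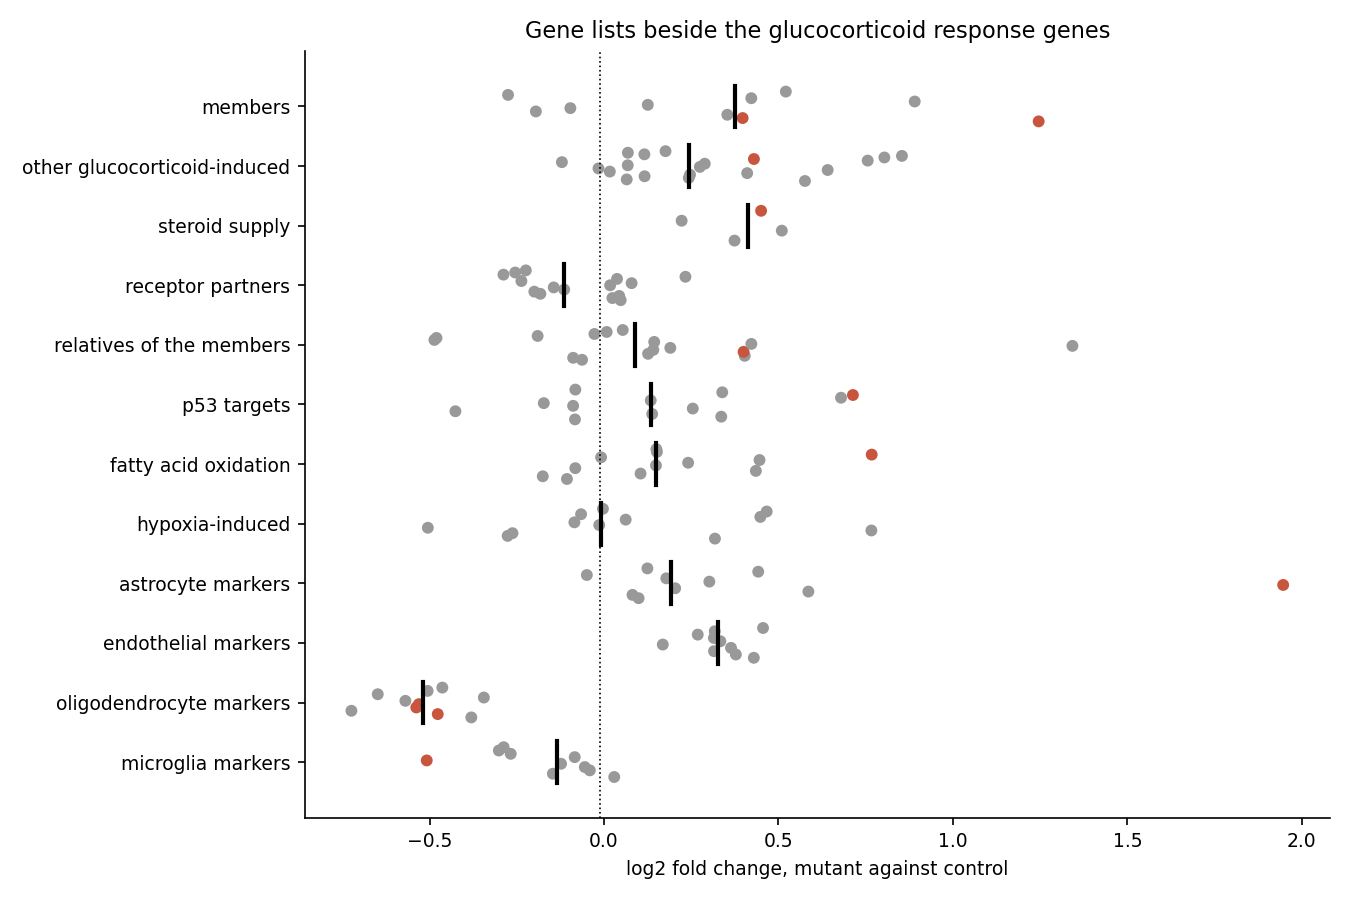
Log2 fold change of mutant against control (x axis) for each tested gene of 12 lists (rows); red points passed an adjusted p of 0.05, black bars are list medians and the dotted line is the median of all tested genes. Medians ran from -0.52 for oligodendrocyte markers to 0.41 for genes of steroid supply, with 0.38 for the 10 glucocorticoid response genes.

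Several of these genes are enriched in glia or vessels, and markers of those cells differed between genotypes in the same libraries. In bulk tissue, fewer cells of a type and less RNA per cell cannot be told apart. Endothelial markers had positive log2 fold changes for 10 of 10 (median 0.33), with a sum of 257 to 277 CPM in controls and 328 to 342 CPM in mutants, although none passed the threshold in edgeR without a covariate or in limma-voom. In that edgeR fit 7 had an unadjusted p of 0.05 or less, DESeq2 called 3 as higher, and edgeR called 6 as higher both with the run of libraries as a covariate and in libraries 10 to 13 alone. Astrocyte markers were positive for 9 of 10 (median 0.19) and summed to 6174 to 8855 and 9660 to 11256 CPM. The 1 that rose in edgeR without a covariate was *Gfap*, at 6208 to 7255 normalized counts in controls and 22333 to 27248 in mutants (log2 fold change 1.95, edgeR adjusted p = 7.41e-05). DESeq2, and edgeR with the run as a covariate, called 3 as higher (*Aqp4*, *Gfap* and *Gja1*). In libraries 10 to 13 alone edgeR called 4, adding *Slc1a2*. Mutants were all above controls for 5 of the 10. Oligodendrocyte markers were negative for 10 of 10 (median -0.52), 3 of them fell (*Mbp*, *Mag* and *Cnp*; 10 of 10 with the run as a covariate), and their sum was 6884 to 9021 CPM in controls and 4942 to 6188 CPM in mutants.

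Markers of other cell types were read in the same way. Microglia markers summed to 447 to 455 CPM in controls and 374 to 428 CPM in mutants, with 1 of 10 called, *Fcrls* at -0.51 (edgeR adjusted p = 0.0138). Choroid plexus markers overlapped, at 136 to 289.8 and 70.9 to 225 CPM, and blood and pituitary markers also overlapped, at 22.5 to 78.7 and 14.9 to 42.6 CPM. Cortical excitatory neuron markers overlapped too, with *Rorb* lower at -0.47 (edgeR adjusted p = 0.0351), and GABAergic neuron markers, which include *Lhx6*, had 5 of 11 lower and none higher in edgeR without a covariate. DESeq2, and edgeR with the run as a covariate, called 5 lower and 2 higher (*Gad1* and *Gad2*). No marker of endothelium, astrocytes, oligodendrocytes, microglia or choroid plexus was at 0 in all libraries of a genotype. For comparison, the 10 glucocorticoid response genes summed to 384 to 445 CPM in controls and 460.0 to 502 CPM in mutants. The part of cell composition in the differences of *Fkbp5*, *Cdkn1a*, *Mfsd2a* and *Hsd11b1* was not tested.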

How the data were processed

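RNA-seq of 7 forebrain pools was analysed. The authors trimmed 36 bp single-end reads (cutadapt 1.9.1), mapped them with Bowtie2 2.2.9 against Ensembl 84 transcripts (GRCm38) and deposited expected counts per gene estimated with RSEM 1.2.31, without normalization. RSEM divides reads that fit several genes, so genes with close copies are less certain. A further deposited table holds the authors' DESeq2 comparison (fold changes and p-values), of which only the gene symbols were used. Column names gave the genotype and a library number, and no column of values was left unused (0).

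Expected counts were rounded. The 19684 genes that reached 10 counts in 3 or more libraries were scaled with TMM and fitted in edgeR 4.0.16 (R 4.3.3), quasi-likelihood F-test, no covariate, with Benjamini-Hochberg adjustment over all tested genes and a threshold of 0.05. SE was taken as |log2 fold change| divided by the root of F. Within-run values are differences of mean log2 CPM (prior count 2). Replicates differed by more than sampling noise (chi-square per degree of freedom 10.2 to 72.6), and intervals set by depth cover counting error only. The scripts were tested on simulated data of 19297 genes, with 100 changed at a log2 of 1 and 100 at a log2 of 2. edgeR recovered 51 and 82 of these with 9 false calls. DESeq2 recovered 69 and 88 with 51 false calls, and limma-voom 51 and 83 with 7. Genes called by DESeq2 alone are therefore less certain. Alternatives used DESeq2 1.42.0, limma-voom (limma 3.58.1), RLE and upper quartile scaling, other filters, unrounded counts, no genes on X and Y, the run of library numbers, libraries 10 to 13 alone, and each library left out. The 10 members and all further lists were chosen with earlier results of these data known. The text names all members and *Lhx6*, and of each list the called genes (at most 6, by p) and those with the largest and smallest fold change; a few genes this rule names are not reported here. Exon lengths, positions and overlaps came from the deposited annotation, shared 36-base words from a later transcript set of the same build, and promoter windows from RefSeq.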

Additional observations from a re-analysis of the deposited data

Results flagged for a closer look

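Of 30 genes examined, the 10 glucocorticoid response genes and 20 other glucocorticoid-induced genes, 1 had a control library far from the others of its genotype. *Lcn2* counted 208 in control library 3, and 7.68, 7.68 and 28.5 in control libraries 2, 10 and 11, so that the gap to the nearest library was 0.896 of the whole range, above Dixon's critical value for 4 samples. Chance flags about 1 in 20 groups. In libraries 10 to 13 alone, which leave this library out, *Lcn2* was called higher in mutants in edgeR, with a within-run difference of 2.03. The difference within libraries 2, 3 and 5 was -0.51. Over all 7 libraries the log2 fold change of *Lcn2* was -0.12 with an SE of 1.05. What set library 3 apart for this gene was not tested.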

How the results depend on the processing

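Genes called numbered 954, and 1731 with DESeq2, 2205 with the run of libraries as a covariate, 1922 in libraries 10 to 13 only, and 302 to 971 with 1 library left out (513 and 589 without control library 10 or 11, and 458, 387 and 302 without mutant library 5, 12 or 13). Members called numbered 2, and 4 with DESeq2 (adding *Sgk1* and *Zbtb16*; 8.80% of all genes called), 4 with the run as a covariate (adding *Sgk1* and, lower, *Nr3c1*; 11.2%), and 1 to 2 with 1 library left out: *Fkbp5* was lost without control library 2, 10 or 11 or mutant library 5, 12 or 13. Other glucocorticoid-induced genes called numbered 1, and 5 with DESeq2, 2 with limma-voom, 2 with upper quartile scaling, 2 with no filter, 3 with a filter on all 7 libraries, 7 with the run as a covariate, 4 in libraries 10 to 13 only, and 0 to 1 with 1 library left out, 0 without mutant library 5 or 13. Why these counts moved was not tested; leaving out a library also leaves fewer samples. *Pdk4* reversed to -0.026 without mutant library 12 (edgeR adjusted p = 0.969), and its log2 fold change ran from -0.026 to 0.20 with 1 library left out. The same range was -0.25 to -0.10 for *Nr3c1*, -0.19 to -0.035 for *Nr3c2* and 0.58 to 1.09 for *Plin4*. None of these genes passed in those fits. Of the members' values under the alternatives, 157 kept direction and side of the threshold, 5 newly passed, 6 no longer passed and 1 reversed. No paired analysis was possible because column names give genotype and library but no replicate number. At 28 counts in its lowest library, *Plin4* is the member most limited by depth.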
